A study of Homo sapiens with 12 samples.

Results

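The 35 genes described here encode the enzymes that build purine and pyrimidine nucleotides, convert them to the precursors of DNA, and supply the folate-bound carbon that this synthesis uses. They were listed by gene name and role, with earlier results of these data known, and all 35 were found by Ensembl identifier among the 58051 genes of the count table and had enough counts to be tested. By role they comprise 2 genes of PRPP supply, 6 of the de novo purine steps, 4 of the IMP branch, 5 of pyrimidine synthesis, 10 of deoxynucleotide supply, 3 nucleotide and nucleoside kinases and 5 of folate one-carbon metabolism. The cells were NB-1, an established human neuroblastoma line, kept for 48 h with 0.5 µM BEZ-235, with 0.5 µM SAHA, with both drugs at these doses, or with the solvent DMSO. BEZ-235 inhibits PI3K and mTOR, and SAHA inhibits histone deacetylases. Polyadenylated RNA from 3 biological replicates per group was sequenced in 12 stranded libraries. The measurements cover 1 cell line, 1 dose of each drug and 1 time.

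Purines are assembled step by step on phosphoribosyl pyrophosphate (PRPP) to give IMP, from which AMP and GMP branch off, whereas the pyrimidine ring is made first and joined to PRPP afterwards. Ribonucleotide reductase turns ribonucleotides into deoxynucleotides, thymidylate synthase makes the thymidine nucleotide, and salvage kinases recover nucleosides. Carbon units carried by folate come largely from serine and enter both the purine ring and thymidylate. In neuroblastoma and other tumours, MYC family factors are known to drive many of these genes, E2F factors drive those of deoxynucleotide supply at the start of S phase, and mTOR signalling stimulates nucleotide synthesis.

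The libraries held 17662944 to 79543539 counts. Gene levels are in CPM, the usual depth-scaled share of a library's counts, here with TMM-scaled library totals, and differences are log2 fold changes ± SE from edgeR's quasi-likelihood test, with 2-sided Benjamini-Hochberg adjusted p-values over all 17774 genes tested, n = 3 per group and a threshold of 0.05. The 3 libraries from cells given both drugs stood apart in how their counts followed the GC content of transcripts. The median log2 deviation of genes with a GC fraction of at least 0.6 minus that of genes with at most 0.4 was 0.47, 0.82 and 1.12 with both drugs and lay between -0.56 and 0.06 in the other 9 libraries. Values with offsets for GC content and transcript length, fitted per library, are therefore given beside results whose call they change. They are given for only part of the results whose size alone they change. All 9 neuroblastoma markers looked for were detected, with summed levels of 1270 to 1490 CPM with BEZ-235, 1384 to 1544 with SAHA, 1689 to 2217 with both drugs and 1497 to 1767 with DMSO. Within these sums single markers moved in opposite directions. TH averaged 53.9 CPM with BEZ-235, 38.6 with SAHA, 41.4 with both drugs and 138 with DMSO. HAND2 averaged 419, 407, 605 and 408 CPM in the same order. Summed levels of the 4 Schwann cell markers, 3 of them tested, were 0.989 to 1.39 CPM with BEZ-235, 6.39 to 7.15 with SAHA, 5.55 to 6.33 with both drugs and 2.09 to 3.60 with DMSO. Of 4 epithelial markers and 5 leukocyte markers, 0 and 1 had enough counts to be tested. Summed levels of the 5 fibroblast markers moved with the groups, at 13.6 to 17.5 CPM with BEZ-235, 340 to 369 with SAHA, 108 to 137 with both drugs and 63.5 to 68.1 with DMSO, most of it from LUM. The part of the fibroblast and Schwann cell markers in the results was not tested. In bulk RNA of this kind, fewer cells in a given state and less RNA per cell cannot be told apart.

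Most of these genes were lower in treated than in DMSO cells, and each drug had its own set of largest changes. With BEZ-235 the largest decreases were those of thymidine kinase TK1, ribonucleotide reductase subunit RRM2 and thymidylate synthase TYMS, to 0.0622, 0.0669 and 0.135 of their DMSO levels. With SAHA the mitochondrial folate enzyme gene MTHFD1L, CAD, which encodes the first 3 steps of pyrimidine synthesis, and the purine gene PFAS changed most, to 0.357, 0.399 and 0.412 of their DMSO levels. Both sets were low when the drugs were combined. BEZ-235 left 21 of the 35 members lower and 4 higher, where 25.4% and 25.5% of all tested genes were called lower and higher. With SAHA 27 were lower and 1 higher, against 20.9% and 22.2% of all genes, and with both drugs 27 were lower and 2 higher, against 31.2% and 33.2%. The median log2 fold change over the 35 members was -0.29 with BEZ-235, -0.41 with SAHA and -0.95 with both drugs, while over all tested genes it was 0.02, -0.0054 and 0.03. These comparisons share the DMSO libraries, and the differences between the single drugs were not tested.

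With GC and length offsets the members called lower and higher were 23 and 4 with BEZ-235, against 28% and 27.6% of all genes. They were 31 and 1 with SAHA, against 32.5% and 19.5%, and 31 and 2 with both drugs, against 36.2% and 29.7%. The offsets also moved log2 fold changes with both drugs whose call held. Among others, TK1 went from -2.86 to -3.39, CAD from -1.58 to -2.05 and PFAS from -1.56 to -2.00. DTYMK went from -1.90 to -2.38, DCK from -1.56 to -1.12 and ADSS from -0.73 to -0.49. For SAHA the split of all genes called was 3474 higher and 5785 lower with the offsets, and 3945 higher and 3713 lower without them. Of the members called, 21 of 25 with BEZ-235, 21 of 28 with SAHA and 28 of 29 with both drugs were called whichever single library was left out.

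**Figure D1:**
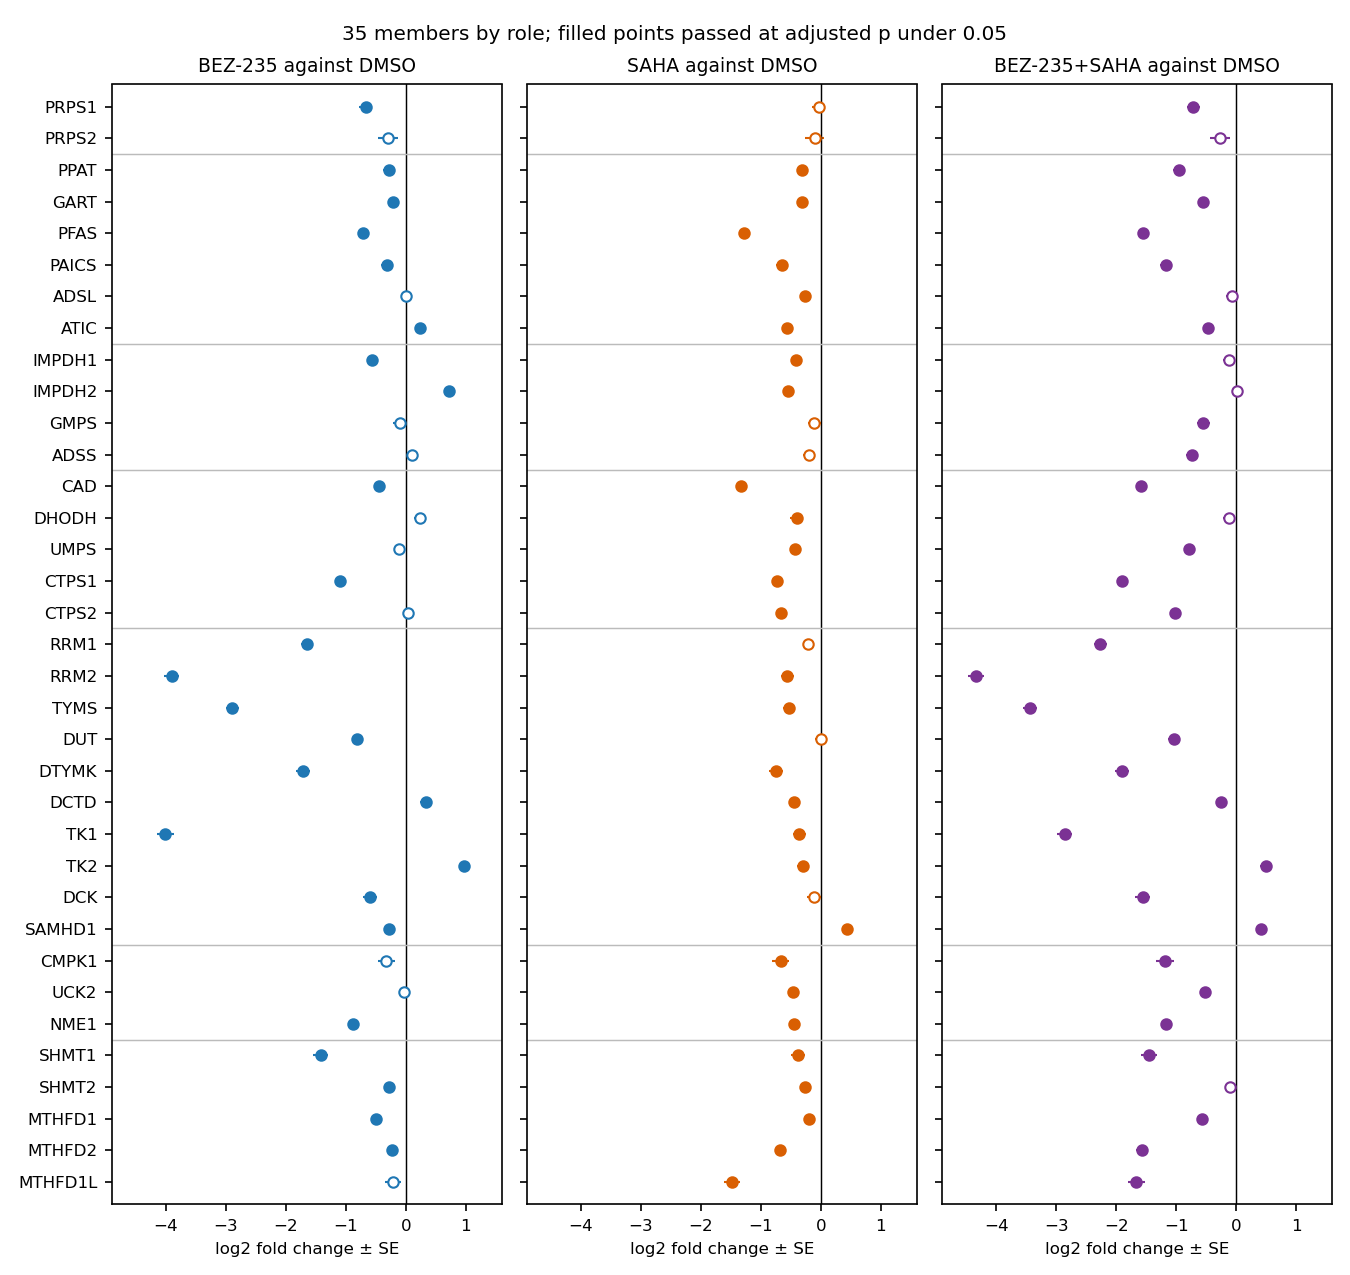
Log2 fold change (horizontal axis, bars are SE) of each of the 35 members against DMSO with BEZ-235, SAHA or both drugs, n = 3 per group, in the order of the pathway with lines between roles. Filled points passed at an adjusted p under 0.05. The deoxynucleotide genes reach -4.01 with BEZ-235, whereas no member is below -1.48 with SAHA.

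PRPP, the activated sugar that all nucleotide synthesis starts from, is made by PRPS1 and PRPS2. PRPS1 stood at 48.7, 50.4 and 52.6 CPM in the 3 BEZ-235 libraries, at 70.8, 81.4 and 83.1 CPM with SAHA, at 60.3, 43.1 and 44.2 CPM with both drugs and at 77.8, 87.2 and 76.3 CPM with DMSO. All BEZ-235 and combination libraries were below all DMSO libraries, while the SAHA libraries overlapped them. The log2 fold change was -0.67 ± 0.11 (adjusted p = 1.13e-04) with BEZ-235, -0.034 ± 0.11 (adjusted p = 0.827) with SAHA and -0.71 ± 0.11 (adjusted p = 3.73e-05) with both drugs. PRPS2 was the less abundant paralogue, with 14.0, 19.5 and 17.5 CPM with BEZ-235, 14.7, 19.6 and 23.7 CPM with SAHA, 18.6, 14.2 and 19.3 CPM with both drugs and 19.8, 21.1 and 21.7 CPM with DMSO. It did not pass in any of these comparisons (adjusted p = 0.147, 0.638 and 0.164). With low counts kept in PRPS2 passed with BEZ-235 (-0.32, adjusted p = 0.0322) and with both drugs (-0.32, adjusted p = 0.0263), and it passed with BEZ-235 when only those 2 groups were fitted (-0.31, adjusted p = 0.0450).

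The 6 genes of the de novo purine steps were all lower with SAHA, where 20.9% of all genes were called lower. PFAS, which encodes FGAM synthase of the early steps, showed the largest change of the 6 with each treatment. It stood at 61.5, 54.5 and 55.3 CPM with BEZ-235, 36.9, 40.9 and 36.9 CPM with SAHA, 29.1, 32.4 and 33.3 CPM with both drugs and 94.0, 92.3 and 92.9 CPM with DMSO. The DMSO libraries lay above all 9 treated libraries, and the combination libraries below all others. PFAS changed by -0.71 ± 0.080 (adjusted p = 1.83e-06) with BEZ-235, by -1.28 ± 0.080 (adjusted p = 6.38e-09) with SAHA and by -1.56 ± 0.082 (adjusted p = 1.06e-10) with both drugs. PAICS, which encodes a bifunctional enzyme of the middle steps and was the most abundant of the 6 in CPM, fell by 0.32 ± 0.10 (adjusted p = 0.0120), 0.65 ± 0.10 (adjusted p = 5.70e-05) and 1.17 ± 0.10 log2 units (adjusted p = 2.96e-08) with BEZ-235, SAHA and both drugs in that order.

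PPAT, which encodes the committed first step, was at -0.28 ± 0.10, -0.31 ± 0.10 and -0.95 ± 0.10 in the same 3 comparisons, and GART, which encodes a trifunctional enzyme, at -0.21 ± 0.074, -0.31 ± 0.074 and -0.55 ± 0.075. With BEZ-235 PPAT lost its call without DMSO replicate 3 (-0.19, adjusted p = 0.127) or BEZ-235 replicate 3 (-0.28, adjusted p = 0.0580), and with SAHA without DMSO replicate 3 (-0.21, adjusted p = 0.0968) or SAHA replicate 1 (-0.24, adjusted p = 0.0766). GART lost its call with BEZ-235 without BEZ-235 replicate 1 (-0.21, adjusted p = 0.0588). With both drugs PPAT, whose transcript has the lowest GC content of the members at 33.8%, was at -0.28 ± 0.091 (adjusted p = 0.0131) with GC offsets and at -0.95 ± 0.10 without them.

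ATIC, which encodes the last 2 steps to IMP, was the 1 gene of these 6 higher with BEZ-235, at 0.25 ± 0.075, while it was lower with SAHA (-0.56 ± 0.075, adjusted p = 1.65e-05) and with both drugs (-0.47 ± 0.075, adjusted p = 4.31e-05). The BEZ-235 call of ATIC did not hold without DMSO replicate 1, DMSO replicate 3 or BEZ-235 replicate 1 (0.20, 0.21 and 0.19, adjusted p = 0.0738, 0.0518 and 0.0775) and with low counts kept in (0.21, adjusted p = 0.1004). ADSL, which encodes an enzyme of both IMP and AMP synthesis, was at -0.27 ± 0.090 (adjusted p = 0.0252) with SAHA, a call that did not hold without DMSO replicate 2 (-0.20, adjusted p = 0.115) or SAHA replicate 1 (-0.19, adjusted p = 0.119). With GC offsets ADSL was at -0.41 ± 0.087 (adjusted p = 8.86e-04) with SAHA. With BEZ-235 and with both drugs ADSL was at 0.0066 ± 0.091 (adjusted p = 0.958) and -0.073 ± 0.091 (adjusted p = 0.496). Of its 75-base stretches, 26.0% also occur in the overlapping transcript AL022238.4, which has no entry in the count table. How reads from such stretches were counted is not known, so counts of ADSL are uncertain.

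PPAT and PAICS lie head to head on chromosome 4, and their RefSeq promoter windows (250 bases before to 50 after a start site, build GRCh38.p14) overlap on opposite strands. The window of PPAT is chr4:56435566-56435865 on the minus strand, and that of PAICS is chr4:56435502-56435801 on the plus strand. PAICS has 2 further windows with no CACGTG. The windows named hold the same CACGTG, the E-box that MYC family factors are known to bind, at chr4:56435792-56435797, 182 bases before the start of PPAT and 40 after that of PAICS. The window of PPAT is printed because its 1 E-box serves both descriptions, with CACGTG in capitals.
PPAT: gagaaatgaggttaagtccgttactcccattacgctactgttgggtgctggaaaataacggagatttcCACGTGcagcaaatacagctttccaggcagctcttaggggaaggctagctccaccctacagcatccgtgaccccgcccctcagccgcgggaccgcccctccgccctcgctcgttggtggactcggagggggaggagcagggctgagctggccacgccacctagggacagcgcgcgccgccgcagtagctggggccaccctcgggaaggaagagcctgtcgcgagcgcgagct
Of the 35 members 32 had a promoter entry, and ADSL, IMPDH2 and SHMT2 did not. CACGTG, read on both strands, occurred in 8 of these 32 genes (25.0%), against 8.77% of all 27305 genes in the RefSeq table and 10.9% of its 15843 protein coding genes. Among the 8, the shared site of PPAT and PAICS counts for each of these genes. A gene with several windows was counted if any of them held the letters. A match describes the letters and not a bound site.

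At the IMP branch the paralogues IMPDH1 and IMPDH2, which encode the enzyme that commits IMP to GMP, moved in opposite directions with BEZ-235. IMPDH2 stood at 306, 301 and 299 CPM with BEZ-235, 114, 128 and 134 CPM with SAHA, 187, 175 and 193 CPM with both drugs and 179, 206 and 167 CPM with DMSO. The BEZ-235 libraries were above, and the SAHA libraries below, all others. The log2 fold change was 0.72 ± 0.086 (adjusted p = 3.54e-06) with BEZ-235, -0.55 ± 0.086 (adjusted p = 8.04e-05) with SAHA and 0.011 ± 0.086 (adjusted p = 0.919) with both drugs. IMPDH1 had 34.4, 29.5 and 27.8 CPM with BEZ-235, 34.9, 34.1 and 32.5 CPM with SAHA, 36.6, 42.3 and 44.8 CPM with both drugs and 44.9, 47.7 and 42.0 CPM with DMSO. Its BEZ-235 and SAHA libraries were below all DMSO libraries, which the combination libraries overlapped. It was lower with BEZ-235 (-0.56 ± 0.10, adjusted p = 1.86e-04) and with SAHA (-0.41 ± 0.10, adjusted p = 0.00268) and did not pass with both drugs (-0.12 ± 0.10, adjusted p = 0.291). With GC offsets both paralogues were lower with both drugs, IMPDH1 at -0.63 ± 0.060 (adjusted p = 6.96e-08) and IMPDH2 at -0.23 ± 0.071 (adjusted p = 0.00941), against 0.011 for IMPDH2 without them.

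ADSS, which encodes the first step to AMP, had 126, 131 and 131 CPM with BEZ-235, 95.6, 106 and 111 CPM with SAHA, 82.3, 74.3 and 60.1 CPM with both drugs and 116, 127 and 117 CPM with DMSO. The combination libraries lay below all the others. ADSS was at -0.73 ± 0.10 (adjusted p = 5.96e-06) with both drugs and did not pass with BEZ-235 (0.11 ± 0.10, adjusted p = 0.353) or SAHA (-0.20 ± 0.10, adjusted p = 0.109). GMPS, which encodes the last step to GMP, was at -0.10 ± 0.11 (adjusted p = 0.448), -0.11 ± 0.10 (adjusted p = 0.430) and -0.55 ± 0.11 (adjusted p = 2.68e-04) with BEZ-235, SAHA and both drugs. GMPS was at -0.34 ± 0.10 (adjusted p = 0.0108) with both drugs when GC offsets were used. With these offsets ADSS and GMPS passed with SAHA as well (-0.33 and -0.33, adjusted p = 3.84e-04 and 0.0135), and without combination replicate 3 ADSS passed with SAHA at -0.19, adjusted p = 0.0483.

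All 5 genes of pyrimidine synthesis were lower with SAHA, where 20.9% of all genes were called lower. CAD stood at 144, 121 and 131 CPM with BEZ-235, 72.2, 74.2 and 68.2 CPM with SAHA, 56.6, 62.6 and 60.4 CPM with both drugs and 175, 176 and 187 CPM with DMSO. The 4 groups did not overlap. Its log2 fold change was -0.45 ± 0.077 (adjusted p = 1.39e-04) with BEZ-235, -1.32 ± 0.078 (adjusted p = 3.10e-09) with SAHA and -1.58 ± 0.079 (adjusted p = 5.87e-11) with both drugs. CTPS1 and CTPS2 encode the synthases that make CTP from UTP. CTPS1 had 43.7, 36.6 and 39.6 CPM with BEZ-235, 48.4, 54.4 and 52.2 CPM with SAHA, 24.1, 23.3 and 21.9 CPM with both drugs and 85.0, 88.6 and 84.3 CPM with DMSO. Again no groups overlapped, and the changes were -1.10 ± 0.082 (adjusted p = 1.50e-08), -0.73 ± 0.081 (adjusted p = 2.39e-06) and -1.90 ± 0.086 (adjusted p = 1.86e-11) with BEZ-235, SAHA and both drugs.

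CTPS2 had 51.2, 55.5 and 53.2 CPM with BEZ-235, 29.7, 35.01 and 33.5 CPM with SAHA, 26.2, 25.2 and 25.7 CPM with both drugs and 53.5, 51.8 and 51.3 CPM with DMSO. Its BEZ-235 and DMSO libraries overlapped (0.030 ± 0.078, adjusted p = 0.777), whereas it was lower with SAHA (-0.67 ± 0.079, adjusted p = 4.85e-06) and with both drugs (-1.02 ± 0.081, adjusted p = 1.46e-08). DHODH, which encodes the step carried out in the mitochondrion, was called lower with SAHA (-0.40 ± 0.10, adjusted p = 0.00431) and not with BEZ-235 (0.24 ± 0.10, adjusted p = 0.0640) or both drugs (-0.12 ± 0.10, adjusted p = 0.330). Without DMSO replicate 2 DHODH passed as higher with BEZ-235 (0.30, adjusted p = 0.0392), and with GC offsets as lower with both drugs (-0.40, adjusted p = 0.00245). UMPS, which encodes the last 2 steps to UMP, was at -0.12 ± 0.082 (adjusted p = 0.258), -0.44 ± 0.082 (adjusted p = 3.90e-04) and -0.79 ± 0.084 (adjusted p = 4.80e-07) with BEZ-235, SAHA and both drugs, and passed with BEZ-235 when GC offsets were used (-0.20, adjusted p = 0.0458).

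The 10 genes of deoxynucleotide supply carried the largest changes with BEZ-235, where 8 were lower and 2 higher, with a median of -1.23. With SAHA 6 were lower and 1 higher (median -0.34), and with both drugs 8 were lower and 2 higher (median -1.73). Of all genes 25.4% and 25.5% were called lower and higher with BEZ-235. With SAHA these shares were 20.9% and 22.2%, and with both drugs 31.2% and 33.2%. With GC offsets 8 of the 10 were lower and 1 higher with SAHA, where 32.5% and 19.5% of all genes were. RRM2, the regulatory subunit of ribonucleotide reductase made in S phase, stood at 8.36, 8.67 and 10.5 CPM with BEZ-235, 78.0, 103 and 99.0 CPM with SAHA, 7.39, 5.63 and 7.38 CPM with both drugs and 140.1, 133 and 139.9 CPM with DMSO. The BEZ-235 and combination libraries were all below 11 CPM, and those of SAHA lay between them and DMSO. RRM2 changed by -3.90 ± 0.13 (adjusted p = 1.05e-12) with BEZ-235, -0.56 ± 0.11 (adjusted p = 4.47e-04) with SAHA and -4.34 ± 0.13 (adjusted p = 3.02e-13) with both drugs, a decrease of 14.9-fold, 1.47-fold and 20.2-fold. Of the 75-base stretches of RRM2 29.6% also occur in other annotated transcripts, mainly AC007240.1, which has no entry in the count table. How reads from such stretches were counted is not known, so counts of RRM2 are uncertain.

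RRM1, the catalytic subunit of the same enzyme, had 34.5, 34.4 and 34.4 CPM with BEZ-235, 85.8, 97.5 and 96.7 CPM with SAHA, 27.2, 19.6 and 20.9 CPM with both drugs and 111, 112 and 102 CPM with DMSO. The BEZ-235 libraries agreed within 0.2 CPM and were all below those of SAHA and DMSO. RRM1 was lower with BEZ-235 (-1.65 ± 0.10, adjusted p = 1.36e-09) and with both drugs (-2.26 ± 0.11, adjusted p = 2.43e-11). With SAHA it did not pass (-0.21 ± 0.10, adjusted p = 0.0895), but did with GC offsets (-0.34, adjusted p = 8.06e-04) and without combination replicate 1 (-0.21, adjusted p = 0.0252).

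TYMS, thymidylate synthase, had 15.4, 15.3 and 15.3 CPM with BEZ-235, 62.5, 84.1 and 88.6 CPM with SAHA, 10.3, 10.3 and 10.7 CPM with both drugs and 115, 119.5 and 106 CPM with DMSO. No 2 groups overlapped. TYMS was at -2.89 ± 0.11 (adjusted p = 8.17e-12) with BEZ-235, -0.53 ± 0.10 (adjusted p = 5.07e-04) with SAHA and -3.44 ± 0.12 (adjusted p = 1.004e-12) with both drugs. ENOSF1 and TYMSOS lie on the opposite strand of the TYMS locus, and the strand setting of the counting is not given in the sources used here. ENOSF1 held 8.03 to 21.1 CPM and TYMSOS 0.268 to 1.59 CPM over the 12 libraries.

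TK1, the cytosolic thymidine kinase of dividing cells, stood at 3.27, 3.21 and 2.41 CPM with BEZ-235, 33.5, 38.4 and 38.0 CPM with SAHA, 5.85, 6.34 and 7.28 CPM with both drugs and 48.3, 52.1 and 41.4 CPM with DMSO. The combination libraries were above all BEZ-235 libraries and below the rest. TK1 changed by -4.01 ± 0.14 (adjusted p = 2.54e-12) with BEZ-235, -0.36 ± 0.11 (adjusted p = 0.0120) with SAHA and -2.86 ± 0.13 (adjusted p = 1.40e-11) with both drugs. The SAHA call of TK1 did not hold without DMSO replicate 2 (-0.29, adjusted p = 0.0724) or SAHA replicate 1 (-0.30, adjusted p = 0.0583). TK2, the mitochondrial thymidine kinase, was higher with BEZ-235. It stood at 39.5, 38.0 and 37.3 CPM with BEZ-235, 13.6, 16.4 and 16.8 CPM with SAHA, 26.5, 26.3 and 29.2 CPM with both drugs and 18.8, 20.9 and 18.5 CPM with DMSO. Its BEZ-235 libraries were above all others and its SAHA libraries below all others. TK2 was at 0.98 ± 0.10 (adjusted p = 3.84e-07) with BEZ-235, -0.31 ± 0.10 (adjusted p = 0.0172) with SAHA and 0.49 ± 0.10 (adjusted p = 2.83e-04) with both drugs, where GC offsets gave 0.27 (adjusted p = 0.0194). Its SAHA call did not hold without DMSO replicate 2 (-0.25, adjusted p = 0.0859), without SAHA replicate 1 (-0.22, adjusted p = 0.0752) and with low counts kept in (-0.29, adjusted p = 0.0553).

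DTYMK, which encodes the kinase that both routes to thymidine nucleotides share, had 18.5, 15.6 and 13.2 CPM with BEZ-235, 29.4, 31.0 and 31.2 CPM with SAHA, 13.7, 12.7 and 14.8 CPM with both drugs and 50.2, 58.3 and 45.8 CPM with DMSO. Every DMSO library was above every treated library. The changes of DTYMK were -1.71 ± 0.12 (adjusted p = 6.43e-09), -0.75 ± 0.11 (adjusted p = 5.07e-05) and -1.90 ± 0.12 (adjusted p = 9.54e-10) with BEZ-235, SAHA and both drugs. DUT, which encodes the enzyme that removes dUTP, was lower with BEZ-235 (-0.81 ± 0.087, adjusted p = 1.15e-06) and both drugs (-1.04 ± 0.088, adjusted p = 3.15e-08) and stood at -0.0065 ± 0.085 (adjusted p = 0.961) with SAHA. DCK, the salvage kinase of deoxycytidine, had 22.9, 26.7 and 26.0 CPM with BEZ-235, 30.2, 35.2 and 39.7 CPM with SAHA, 13.9, 14.3 and 10.6 CPM with both drugs and 38.7, 36.4 and 38.8 CPM with DMSO. Its combination libraries were the lowest, the BEZ-235 libraries came next, and SAHA and DMSO overlapped. DCK was at -0.59 ± 0.12 (adjusted p = 5.28e-04), -0.11 ± 0.11 (adjusted p = 0.450) and -1.56 ± 0.12 (adjusted p = 1.43e-08) in these comparisons, and with GC offsets it passed with SAHA as well (-0.22, adjusted p = 0.0263).

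DCTD, which encodes the deaminase that supplies dUMP for thymidylate, was higher with BEZ-235 and lower with SAHA. It had 74.9, 74.0 and 74.4 CPM with BEZ-235, 37.1, 46.7 and 46.1 CPM with SAHA, 52.1, 46.9 and 50.9 CPM with both drugs and 59.0, 62.9 and 56.0 CPM with DMSO. No 2 groups overlapped. The log2 fold changes of DCTD were 0.33 ± 0.089 (adjusted p = 0.00554), -0.45 ± 0.089 (adjusted p = 7.02e-04) and -0.25 ± 0.090 (adjusted p = 0.0248), the last call not holding without DMSO replicate 2 (-0.23, adjusted p = 0.0653) or combination replicate 2 (-0.23, adjusted p = 0.0655). With GC offsets DCTD was at -0.50 ± 0.078 (adjusted p = 2.41e-05) with both drugs. SAMHD1, which breaks deoxynucleotides down, was the 1 member higher with SAHA. It had 56.5, 56.0 and 60.0 CPM with BEZ-235, 91.9, 95.4 and 94.3 CPM with SAHA, 97.8, 86.4 and 92.4 CPM with both drugs and 67.0, 71.7 and 69.7 CPM with DMSO. The SAHA and combination libraries were above, and the BEZ-235 libraries below, all DMSO libraries. SAMHD1 was at -0.27 ± 0.071 (adjusted p = 0.00435) with BEZ-235, 0.43 ± 0.070 (adjusted p = 1.10e-04) with SAHA and 0.41 ± 0.071 (adjusted p = 8.76e-05) with both drugs. With GC offsets it was at 0.26 ± 0.058 (adjusted p = 0.00114) with SAHA.

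**Figure D2:**
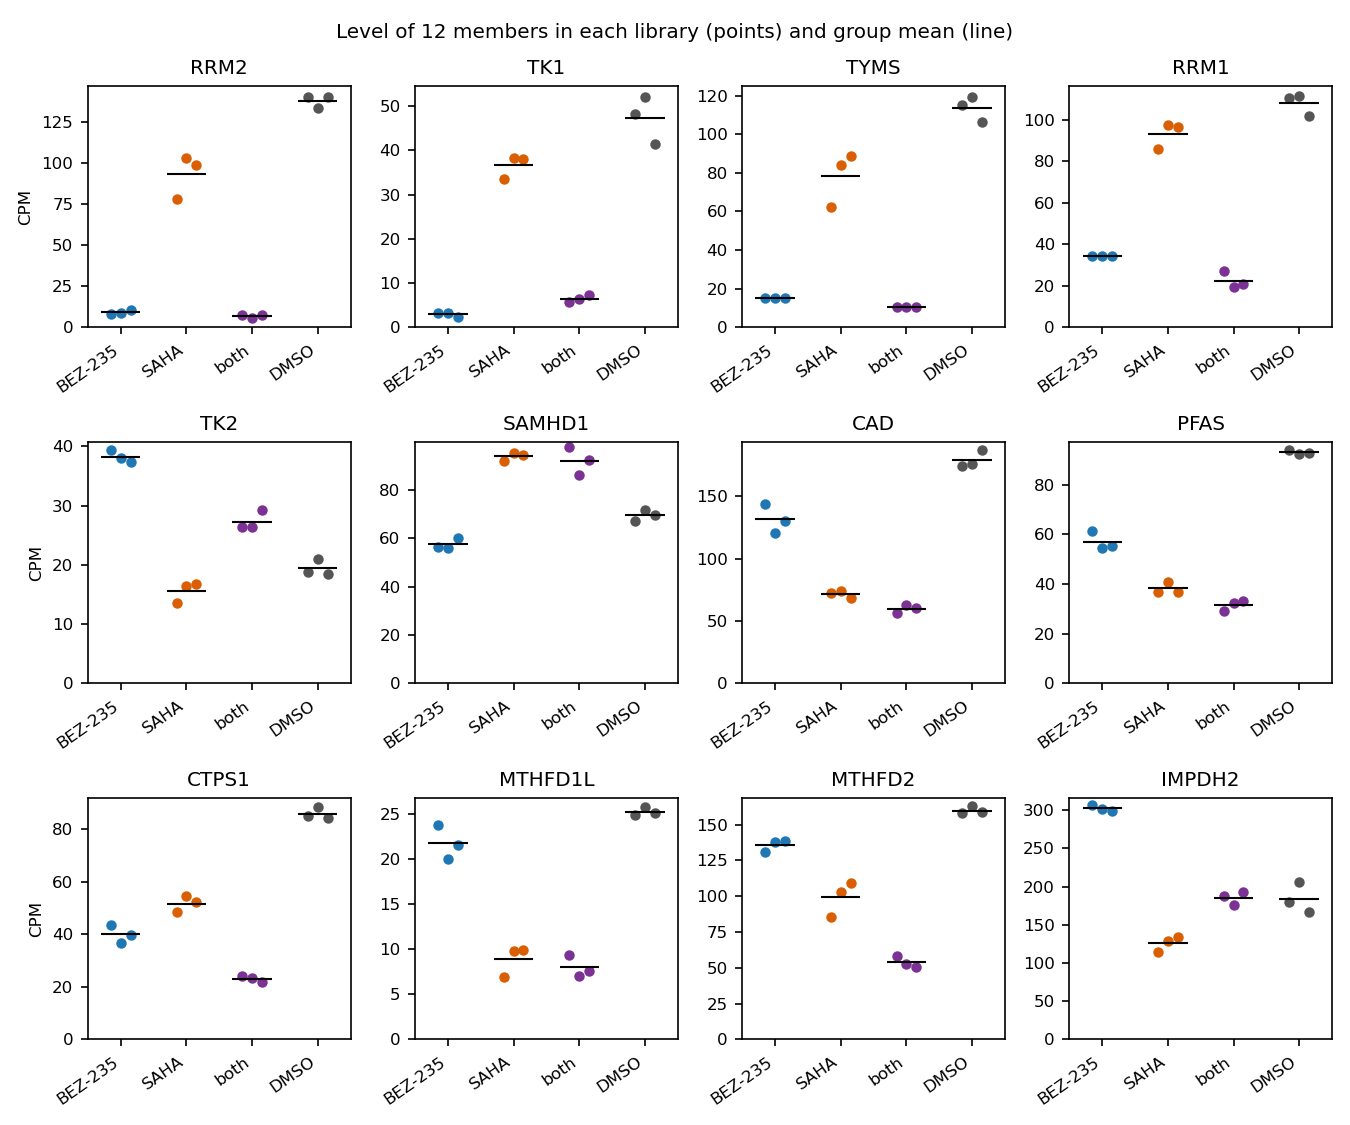
Level in CPM (vertical axes start at 0) of 12 members in each of the 12 libraries, with BEZ-235, SAHA, both drugs and DMSO from left to right. Points are libraries and lines are means of 3. RRM2, TK1, TYMS and RRM1 are low in both groups that received BEZ-235, CAD, PFAS and MTHFD1L in both groups that received SAHA, and TK2 and IMPDH2 are highest with BEZ-235.

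The promoter windows of RRM2, TK1 and TYMS are printed because these 3 genes had the largest decreases with BEZ-235. That of RRM2 (chr2:10122489-10122788, plus strand, GRCh38.p14) holds 3 copies of the CCAAT box that NF-Y binds, 123, 93 and 66 bases before the start site. That of TK1 (chr17:78187003-78187302, minus strand) holds 2 copies read as ATTGG, 77 and 46 bases before the start. The TYMS window (chr18:657403-657702, plus strand) holds GCGGGAAA, an E2F-type word read on the other strand, 39 bases before the start. RRM2 and TK1 each have a further window, which for RRM2 holds 1 CCAAT and for TK1 none. Capitals mark these letters.
RRM2: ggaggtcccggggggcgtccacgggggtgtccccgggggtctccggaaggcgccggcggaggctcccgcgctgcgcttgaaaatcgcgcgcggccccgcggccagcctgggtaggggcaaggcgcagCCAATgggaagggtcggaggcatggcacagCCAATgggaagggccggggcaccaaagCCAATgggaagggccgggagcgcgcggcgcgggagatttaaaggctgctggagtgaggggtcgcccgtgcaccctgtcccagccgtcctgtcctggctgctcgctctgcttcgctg
TK1: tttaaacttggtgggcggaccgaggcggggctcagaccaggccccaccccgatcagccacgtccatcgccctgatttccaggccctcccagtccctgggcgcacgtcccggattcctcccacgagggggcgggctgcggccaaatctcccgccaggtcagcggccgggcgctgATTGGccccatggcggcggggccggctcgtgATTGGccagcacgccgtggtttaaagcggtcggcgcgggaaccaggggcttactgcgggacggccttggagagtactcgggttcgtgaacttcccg
TYMS: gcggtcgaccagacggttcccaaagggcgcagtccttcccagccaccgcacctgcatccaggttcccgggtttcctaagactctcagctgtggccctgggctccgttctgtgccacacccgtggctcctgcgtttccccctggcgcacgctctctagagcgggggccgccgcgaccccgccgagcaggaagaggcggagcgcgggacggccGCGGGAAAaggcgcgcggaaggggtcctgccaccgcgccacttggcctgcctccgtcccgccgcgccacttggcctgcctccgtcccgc
The CCAAT box, searched as ATTGG on both strands, occurred in 15 of the 32 members with an entry (46.9%), against 39.7% of all genes and 42.1% of protein coding genes in the table. E2F-type words, searched as TTTCGCGC, TTTGGCGC, TTTCCCGC and TTTGGCGG on both strands, occurred in 6 of 32 (18.8%), against 4.05% and 5.53%. As for CACGTG, a gene with several windows was counted if any of them held a match. Of the deoxynucleotide genes TYMS, DUT and DCK held such a word, and outside that role GMPS, GART and PRPS2 did.

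All 3 nucleotide and nucleoside kinase genes were lower with SAHA and with both drugs, where 20.9% and 31.2% of all genes were called lower. NME1, a nucleoside diphosphate kinase, was at -0.88 ± 0.088 (adjusted p = 4.68e-07) with BEZ-235, -0.45 ± 0.087 (adjusted p = 5.63e-04) with SAHA and -1.17 ± 0.088 (adjusted p = 8.43e-09) with both drugs. Of its 75-base stretches 40.0% also occur in the read-through transcript NME1-NME2, which stood at 44.8 ± 14.1 CPM with BEZ-235, 64.1 ± 8.57 CPM with SAHA, 58.0 ± 13.5 CPM with both drugs and 88.7 ± 18.02 CPM with DMSO (SD, n = 3), so the division of reads between them is uncertain. UCK2, which salvages uridine and cytidine, was at -0.027 ± 0.068 (adjusted p = 0.763), -0.47 ± 0.068 (adjusted p = 3.98e-05) and -0.52 ± 0.069 (adjusted p = 5.46e-06), and CMPK1, which phosphorylates CMP and UMP, at -0.32 ± 0.14 (adjusted p = 0.0725), -0.67 ± 0.14 (adjusted p = 0.00132) and -1.18 ± 0.15 (adjusted p = 3.86e-06) in the same order. CMPK1 passed with BEZ-235 without BEZ-235 replicate 3 (-0.43, adjusted p = 0.0411), SAHA replicate 1 (-0.34, adjusted p = 0.0227) or SAHA replicate 3 (-0.33, adjusted p = 0.0408), with low counts kept in (-0.35, adjusted p = 0.0115), with only those 2 groups fitted (-0.34, adjusted p = 0.0162) and with GC offsets (-0.29, adjusted p = 0.0286). With both drugs these offsets placed CMPK1 at -0.68 ± 0.11 (adjusted p = 5.10e-05).

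All 5 genes of folate one-carbon metabolism were lower with SAHA, and 4 with BEZ-235 and with both drugs. Of all genes 20.9% were called lower with SAHA, 25.4% with BEZ-235 and 31.2% with both drugs. MTHFD1L, which releases formate from the mitochondrion, had 23.7, 20.1 and 21.5 CPM with BEZ-235, 6.89, 9.84 and 9.96 CPM with SAHA, 9.41, 7.01 and 7.56 CPM with both drugs and 24.9, 25.8 and 25.1 CPM with DMSO. The 6 libraries with SAHA were below 10 CPM and the 6 without it above 20 CPM. MTHFD1L was at -0.21 ± 0.13 (adjusted p = 0.183) with BEZ-235, -1.48 ± 0.13 (adjusted p = 2.99e-07) with SAHA and -1.66 ± 0.14 (adjusted p = 3.09e-08) with both drugs, and with only BEZ-235 and DMSO fitted it passed at -0.23, adjusted p = 0.0479. MTHFD2, the mitochondrial dehydrogenase and cyclohydrolase found mainly in embryonic and tumour cells, had 131, 138 and 138 CPM with BEZ-235, 85.5, 103 and 109 CPM with SAHA, 58.4, 52.4 and 50.4 CPM with both drugs and 158, 163 and 159 CPM with DMSO. The 4 groups did not overlap, and the combination was lowest. MTHFD2 changed by -0.23 ± 0.086 (adjusted p = 0.0311), -0.69 ± 0.086 (adjusted p = 8.75e-06) and -1.57 ± 0.089 (adjusted p = 2.42e-10) with BEZ-235, SAHA and both drugs. Its BEZ-235 call did not hold without DMSO replicate 1 (-0.25, adjusted p = 0.0583), DMSO replicate 2 (-0.23, adjusted p = 0.0667) or BEZ-235 replicate 1 (-0.23, adjusted p = 0.0722).

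The RefSeq table holds 4 start sites of MTHFD1L, and 1 window is printed. That window of MTHFD1L (chr6:150866236-150866535, plus strand, GRCh38.p14), the gene with the largest decrease with SAHA, holds a CCAAT box 193 and a CACGTG 154 bases before its start, both in capitals. The same CACGTG lies 1 and 115 bases before the starts of 2 other windows, and the remaining window holds neither motif.
MTHFD1L: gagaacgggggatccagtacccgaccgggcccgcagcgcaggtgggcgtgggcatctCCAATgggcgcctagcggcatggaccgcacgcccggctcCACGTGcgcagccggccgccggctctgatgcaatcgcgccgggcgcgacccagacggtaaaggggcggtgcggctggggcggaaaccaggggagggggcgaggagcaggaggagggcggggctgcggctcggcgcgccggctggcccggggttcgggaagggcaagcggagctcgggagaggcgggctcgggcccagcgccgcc

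SHMT1 and SHMT2 encode the cytosolic and mitochondrial enzymes that take the carbon unit from serine. SHMT1 had 6.27, 6.42 and 5.76 CPM with BEZ-235, 11.8, 12.8 and 13.3 CPM with SAHA, 6.17, 4.96 and 6.83 CPM with both drugs and 14.8, 17.2 and 17.2 CPM with DMSO. Its BEZ-235 and combination libraries were below all SAHA libraries, and those below all DMSO libraries. SHMT1 was at -1.42 ± 0.13 (adjusted p = 1.61e-07) with BEZ-235, -0.38 ± 0.12 (adjusted p = 0.0171) with SAHA and -1.45 ± 0.13 (adjusted p = 5.93e-08) with both drugs. SHMT2 had 161, 161 and 147 CPM with BEZ-235, 156, 159.7 and 160.3 CPM with SAHA, 182, 166 and 184 CPM with both drugs and 184, 209 and 179 CPM with DMSO. Its BEZ-235 and SAHA libraries were below all DMSO libraries, and the combination overlapped DMSO. SHMT2 was lower with BEZ-235 (-0.29 ± 0.077, adjusted p = 0.00527) and SAHA (-0.26 ± 0.077, adjusted p = 0.0105), and with both drugs it passed with GC offsets (-0.46, adjusted p = 1.90e-05) and not without them (-0.10 ± 0.077, adjusted p = 0.249). The SAHA call of SHMT1 did not hold without DMSO replicate 2 (-0.34, adjusted p = 0.0610), DMSO replicate 3 (-0.35, adjusted p = 0.0582) or SAHA replicate 1 (-0.33, adjusted p = 0.0603), and that of SHMT2 without DMSO replicate 2 (-0.19, adjusted p = 0.0578) and with low counts kept in (-0.25, adjusted p = 0.0517).

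MTHFD1, the trifunctional enzyme of the cytosol, had 143, 134 and 139 CPM with BEZ-235, 166, 177 and 168 CPM with SAHA, 141, 124 and 131 CPM with both drugs and 189, 201 and 199 CPM with DMSO. The DMSO libraries were above all treated ones. MTHFD1 was at -0.50 ± 0.070 (adjusted p = 1.81e-05), -0.21 ± 0.070 (adjusted p = 0.0249) and -0.57 ± 0.070 (adjusted p = 2.24e-06) with BEZ-235, SAHA and both drugs. The SAHA call did not hold without DMSO replicate 2, DMSO replicate 3, SAHA replicate 1 or SAHA replicate 3 (-0.19, -0.20, -0.18 and -0.20, adjusted p = 0.0607, 0.0560, 0.0730 and 0.0690) and with low counts kept in (-0.19, adjusted p = 0.183). With GC offsets MTHFD1 was at -0.41 ± 0.064 (adjusted p = 4.52e-05) with SAHA.

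Paired enzymes that catalyse the same or consecutive reactions were compared as log2 ratios of their counts within each library. The ratio TK1/TK2 was -3.58, -3.55 and -3.94 with BEZ-235, 1.30, 1.23 and 1.18 with SAHA, -2.17, -2.05 and -2.00 with both drugs and 1.36, 1.31 and 1.16 with DMSO. The balance thus lay towards TK2 in the 6 libraries with BEZ-235 and towards TK1 in the 6 without. Per kb of transcript, TK1 stood at 0.243 times TK2 with BEZ-235, 7.39 times with SAHA, 0.746 times with both drugs and 7.63 times with DMSO. RRM2/RRM1 averaged -1.91 ± 0.18 with BEZ-235, -0.0097 ± 0.11 with SAHA, -1.72 ± 0.20 with both drugs and 0.35 ± 0.10 with DMSO (SD, n = 3), so the regulatory subunit was the lower of the pair, in counts, in all 6 libraries with BEZ-235. It was also the lower in SAHA replicate 1 (-0.14). The SAHA libraries too lay apart from DMSO in this ratio, with a shift of -0.36 log2 units.

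SHMT1/SHMT2 averaged -4.66 ± 0.019 with BEZ-235, -3.65 ± 0.064 with SAHA, -4.89 ± 0.15 with both drugs and -3.54 ± 0.14 with DMSO (SD, n = 3). CTPS1/CTPS2 shifted by -1.14 with BEZ-235, -0.060 with SAHA and -0.87 with both drugs, in log2 units against DMSO. IMPDH1/IMPDH2 shifted by -1.28, 0.14 and -0.14 in the same order. The BEZ-235 libraries lay apart from the DMSO libraries in each of these ratios, and the SAHA libraries overlapped with DMSO in each. With both drugs SHMT1/SHMT2 and CTPS1/CTPS2 lay apart from DMSO, whereas IMPDH1/IMPDH2 overlapped. PRPS1/PRPS2 shifted by -0.36 with BEZ-235, 0.10 with SAHA and -0.44 with both drugs.

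Among the folate enzymes MTHFD2/MTHFD1L was 0.83 log2 units higher with SAHA, where its libraries lay apart from DMSO, and differed by -0.017 with BEZ-235 and 0.094 with both drugs, where they overlapped. MTHFD2/MTHFD1 shifted by 0.27 with BEZ-235, -0.49 with SAHA and -1.0001 with both drugs, each apart from DMSO. With 3 libraries against 3 the 2-sided exact permutation test cannot go below p = 0.10, the value it gave for every ratio whose groups lay apart (0.15 adjusted over the 24 tests), so none passed. These values come from counts without GC offsets. With both drugs the offsets moved the log2 fold changes of MTHFD2, MTHFD1L and MTHFD1 to -1.31, -1.88 and -0.74, against -1.57, -1.66 and -0.57 without them, so the combination values of these ratios depend on them. IMPDH1 and IMPDH2 were at -0.63 and -0.23 with the offsets.

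**Figure D3:**
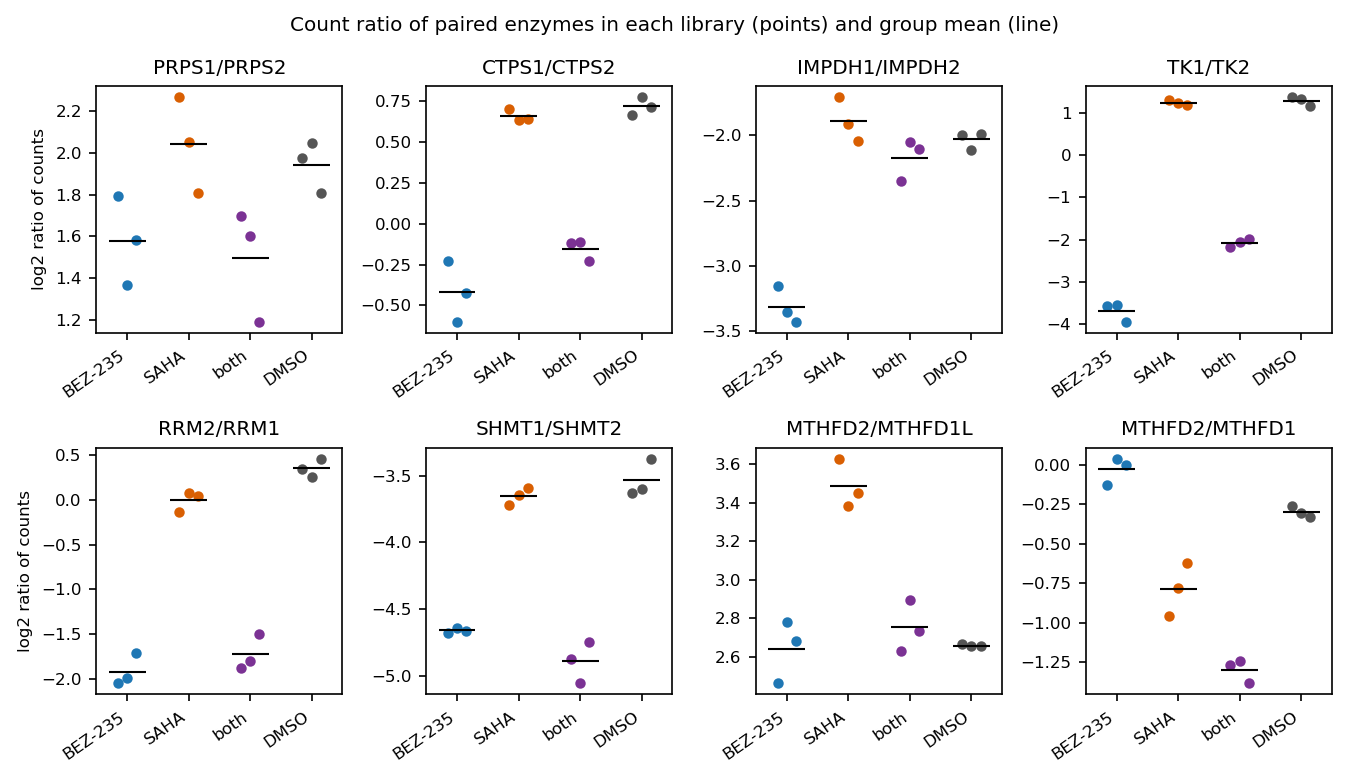
Log2 ratio of the counts of 8 enzyme pairs (vertical axes, different ranges) in each library, with BEZ-235, SAHA, both drugs and DMSO from left to right. Points are libraries and lines are means of 3. The ratios TK1/TK2, RRM2/RRM1, SHMT1/SHMT2 and CTPS1/CTPS2 are lower in both groups with BEZ-235 than in DMSO, and MTHFD2/MTHFD1L is highest with SAHA alone.

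The question for the combination was what each drug added to the other. Against BEZ-235 alone, 25 of the 35 members were lower and 3 higher with both drugs, where 28.5% and 29.5% of all genes were called, with a median of -0.49. MTHFD1L (-1.45 ± 0.14, adjusted p = 3.38e-07), MTHFD2 (-1.34 ± 0.089, adjusted p = 5.97e-09) and CAD (-1.14 ± 0.079, adjusted p = 9.86e-09) had the lowest values, and all 5 pyrimidine genes were lower. With GC offsets the lowest were MTHFD1L (-1.66), CAD (-1.60) and PFAS (-1.33), with MTHFD2 at -1.07. RRM2 and TYMS, already low with BEZ-235, were at -0.43 ± 0.14 (adjusted p = 0.0157) and -0.55 ± 0.12 (adjusted p = 0.00117), and the RRM2 call did not hold without BEZ-235 replicate 3 (-0.32, adjusted p = 0.0953) or combination replicate 2 (-0.33, adjusted p = 0.0786). TK1 (1.15 ± 0.16, adjusted p = 1.08e-05) and SAMHD1 (0.68 ± 0.071, adjusted p = 7.01e-07) were higher with both drugs than with BEZ-235, TK1 at 0.47 with GC offsets (adjusted p = 0.00543). IMPDH1 was also called higher (0.44 ± 0.10, adjusted p = 0.00124), but lower with GC offsets (-0.25 ± 0.062, adjusted p = 0.00246). PPAT was at -0.67 without GC offsets and at 0.019 with them, and GMPS at -0.45 and -0.18, so that neither was called with the offsets. CMPK1 stayed lower, at -0.86 without and -0.39 with them. DUT was at -0.23 ± 0.089 (adjusted p = 0.0326), a call that did not hold with GC offsets (-0.14, adjusted p = 0.148) or without BEZ-235 replicate 1 or 2 or combination replicate 1 or 2 (adjusted p = 0.0543, 0.0883, 0.0526 and 0.0811). DTYMK and SHMT2 were not called, at -0.19 ± 0.12 and 0.18 ± 0.077, but were lower with GC offsets, at -0.70 ± 0.10 (adjusted p = 9.00e-06) and -0.23 ± 0.071 (adjusted p = 0.0107). Without these offsets SHMT2 passed as higher with DESeq2 (0.18, adjusted p = 0.0290) and with only genes averaging 1 CPM or more (0.20, adjusted p = 0.0266). It was also higher without DMSO replicate 2 (0.17, adjusted p = 0.0460) or combination replicate 2 (0.22, adjusted p = 0.0390).

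Against SAHA alone, 23 members were lower and 4 higher with both drugs, where 28.9% and 29.9% of all genes were called, with a median of -0.37. RRM2 (-3.78 ± 0.13, adjusted p = 2.29e-12), TYMS (-2.91 ± 0.12, adjusted p = 7.51e-12), TK1 (-2.49 ± 0.13, adjusted p = 9.00e-11) and RRM1 (-2.05 ± 0.10, adjusted p = 1.02e-10) were lowest. TK2 (0.80 ± 0.10, adjusted p = 2.93e-06) and IMPDH2 (0.56 ± 0.086, adjusted p = 3.59e-05) were higher. The other members called higher were IMPDH1 (0.29) and DHODH (0.29). IMPDH1 turned to -0.34 with GC offsets and lost its call without SAHA replicate 3, combination replicate 2 or combination replicate 3 (adjusted p = 0.0643, 0.0808 and 0.109). DHODH lost its call with GC offsets (0.13, adjusted p = 0.295), with low counts kept in (0.21, adjusted p = 0.262), with only the groups compared in the fit (0.27, adjusted p = 0.0593) and without any of 6 single libraries, at adjusted p-values of 0.0525 to 0.110, namely DMSO replicate 1, BEZ-235 replicate 2, SAHA replicates 1 and 2, and combination replicates 2 and 3. CAD and PFAS, already low with SAHA, were at -0.26 ± 0.078 (adjusted p = 0.00983) and -0.28 ± 0.082 (adjusted p = 0.00793), the call of PFAS not holding without SAHA replicate 2 (-0.23, adjusted p = 0.0543), and MTHFD1L did not pass (-0.18 ± 0.14, adjusted p = 0.302) except without SAHA replicate 1 (-0.34, adjusted p = 0.0329). ADSL and SAMHD1 were not called, at 0.19 ± 0.091 and -0.026 ± 0.070, but were higher with GC offsets, at 0.34 ± 0.087 (adjusted p = 0.00391) and 0.18 ± 0.058 (adjusted p = 0.0168). With GC offsets CAD and PFAS were at -0.62 and -0.68. The calls of PPAT, PAICS, GMPS and CMPK1, at -0.64, -0.53, -0.44 and -0.51 without the offsets, did not hold with them, at 0.035, -0.19, -0.0046 and 0.074.

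The interaction, the SAHA effect in the presence of BEZ-235 minus that in its absence, was called for 11 members, 5 positive and 6 negative, where 18.9% and 19.6% of all genes were called. Neither direction was called more often among the 35 members than among all genes. A value near 0 means that the log2 effects of both drugs added up, and the median over the members was -0.02. RRM2 (0.13 ± 0.18, adjusted p = 0.610), TYMS (-0.019 ± 0.16, adjusted p = 0.940), CAD (0.19 ± 0.11, adjusted p = 0.187) and MTHFD1L (0.038 ± 0.19, adjusted p = 0.900) did not pass. TK1 had the highest interaction at 1.51 ± 0.19 (adjusted p = 7.00e-05) and DCK the lowest at -0.86 ± 0.17 (adjusted p = 0.00121). The 5 members with a positive call, TK1, IMPDH1, DTYMK, SHMT2 and PFAS, had transcripts of 57.0 to 62.8% GC, and the 6 with a negative call, DCK, MTHFD2, ADSS, RRM1, CTPS2 and PPAT, had 33.8 to 45.1%. With GC and length offsets, TK1 (0.71 ± 0.15, adjusted p = 0.00411) and ADSS (-0.30 ± 0.093, adjusted p = 0.0340) kept their calls and the other 9 did not, where 9.85% and 8.59% of all genes were called positive and negative. The calls of PPAT, RRM1 and DTYMK without the offsets did not hold when any 1 of 9, 8 and 2 libraries was left out. SAMHD1 (0.50 ± 0.083, adjusted p = 6.81e-04) and ADSL (0.37 ± 0.12, adjusted p = 0.0490) passed with the offsets and not in the same fit without them. There SAMHD1 was at 0.25 ± 0.10 (adjusted p = 0.0608). Without offsets SAMHD1 did pass with DESeq2 (0.25, adjusted p = 0.0291) and with only genes averaging 1 CPM or more (0.25, adjusted p = 0.0469). It also passed without combination replicate 2 (0.28, adjusted p = 0.0491). Over all tested genes 3277 interactions were called with the offsets and 6834 without.

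**Figure D4:**
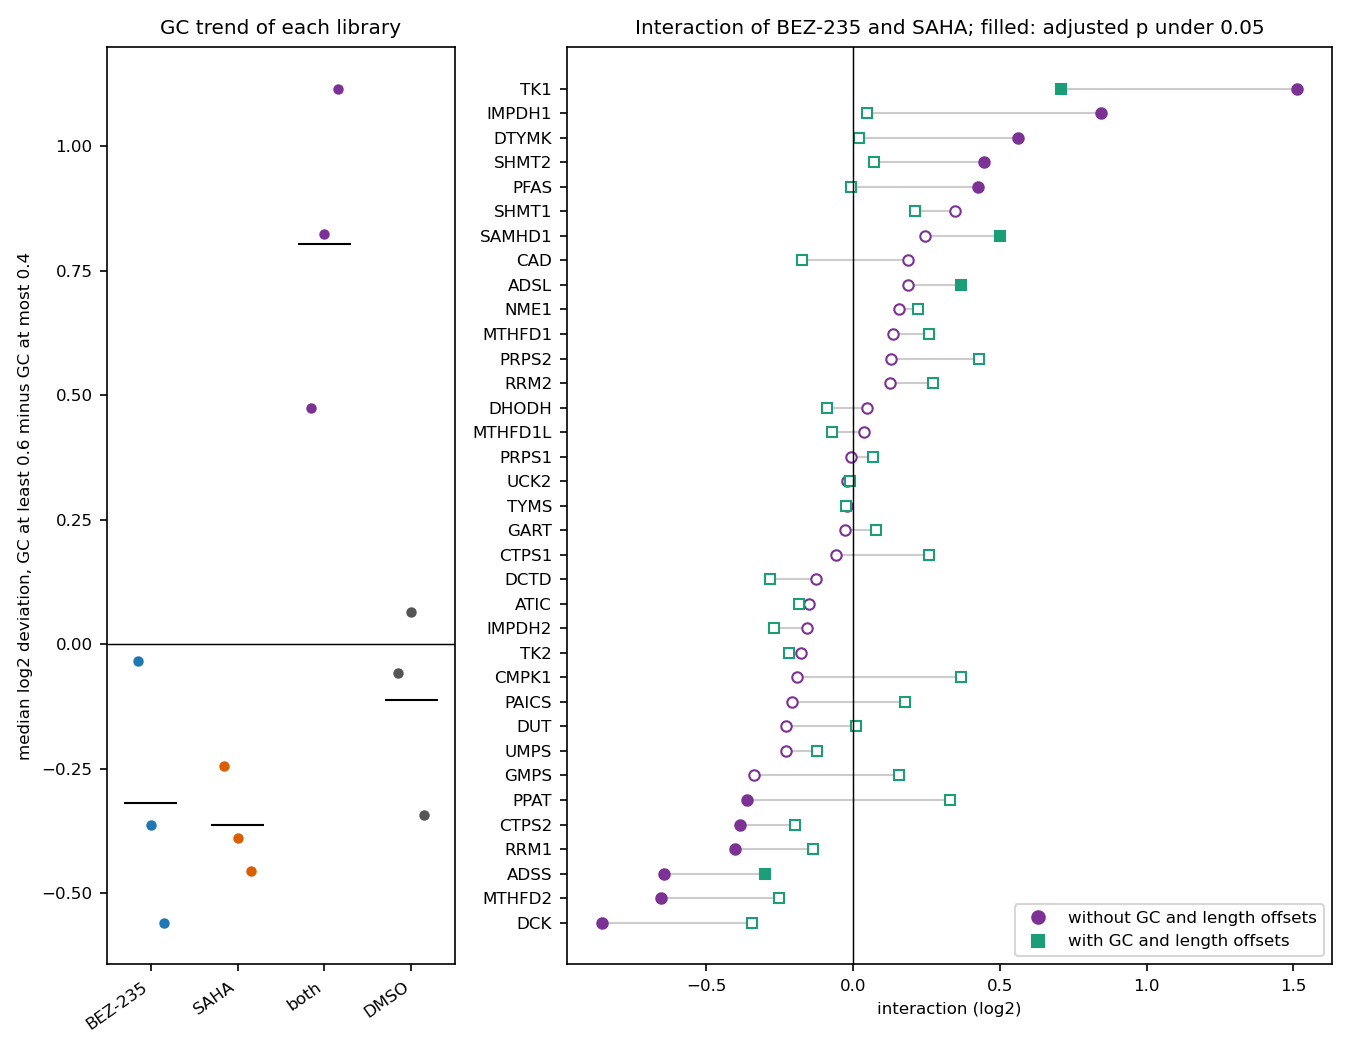
Left, GC trend of each library (median log2 deviation of genes with a GC fraction of at least 0.6 minus that of genes with at most 0.4), with BEZ-235, SAHA, both drugs and DMSO from left to right and lines for means of 3. Right, interaction of BEZ-235 and SAHA in log2 units for the 35 members without (circles) and with (squares) GC and length offsets, filled where the adjusted p was under 0.05. The 3 combination libraries lie between 0.47 and 1.12, above all others, and TK1 and ADSS are filled under both settings.

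Other genes of nucleotide and folate metabolism were listed beside the members, and 61 of 65 had enough counts to be tested. With BEZ-235 8 were higher and 29 lower, with SAHA 11 higher and 20 lower, and with both drugs 17 higher and 29 lower. These are shares of 61, to be set beside the 25.5% and 25.4%, 22.2% and 20.9%, and 33.2% and 31.2% of all genes called higher and lower. Their median log2 fold changes were -0.24, -0.22 and -0.23. With GC offsets 31 were lower and 12 higher with BEZ-235, where 28% and 27.6% of all genes were called. In that setting 35 were lower and 9 higher with SAHA, where 32.5% and 19.5% of all genes were. With both drugs 34 were lower and 11 higher, where 36.2% and 29.7% of all genes were. GGH, which removes the glutamate tail of folates, was lower with BEZ-235 (-2.14 ± 0.10, adjusted p = 6.43e-11) and higher with SAHA (0.83 ± 0.090, adjusted p = 1.88e-06). PHGDH (-0.78 ± 0.094, adjusted p = 5.48e-06 with SAHA) and PSAT1 (-1.83 ± 0.090, adjusted p = 4.52e-11 with both drugs), the first enzymes of serine synthesis, were lower. PHGDH averaged 84.8 CPM with BEZ-235, 84.2 with SAHA, 56.1 with both drugs and 145 with DMSO. PSAT1 averaged 45.3, 79.2, 33.2 and 118 CPM in the same order, so both were also below DMSO with BEZ-235 alone. ITPA, which removes deaminated purine nucleotides, was lower with SAHA (-0.97 ± 0.11, adjusted p = 4.58e-06).

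NT5E, the surface enzyme that turns AMP into adenosine, was at 1.52 ± 0.23 (adjusted p = 4.47e-05) with BEZ-235 and 2.56 ± 0.22 (adjusted p = 4.43e-08) with both drugs, at mean levels of 2.04 CPM and 4.24 CPM against 0.713 CPM with DMSO. With SAHA alone NT5E averaged 2.07 CPM, close to its level with BEZ-235. AMPD3, which deaminates AMP, was at 0.75 ± 0.12 (adjusted p = 8.74e-05) with BEZ-235. It averaged 11.2 CPM with BEZ-235, 9.49 with SAHA, 8.43 with both drugs and 6.66 with DMSO. GMPR, which converts GMP back to IMP, averaged 2.27 CPM with SAHA and 4.19 CPM with both drugs, against 0.0157 CPM with DMSO, where it was close to absent (adjusted p = 1.32e-07 and 3.44e-09).

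Transcripts of 3 regulators known to act on these genes were measured in the same libraries. E2F1 stood at 7.84 ± 1.49 CPM with BEZ-235, 59.5 ± 2.10 CPM with SAHA, 7.04 ± 0.641 CPM with both drugs and 78.0 ± 5.84 CPM with DMSO (SD, n = 3). Its log2 fold changes were -3.32 ± 0.12 (adjusted p = 2.54e-12), -0.39 ± 0.10 (adjusted p = 0.00435) and -3.47 ± 0.12 (adjusted p = 8.04e-13). ATF4, a factor of the amino acid response that is known to raise MTHFD2 downstream of mTOR, rose with BEZ-235 (1.90 ± 0.091, adjusted p = 6.55e-11) and both drugs (1.96 ± 0.091, adjusted p = 2.59e-11), in which MTHFD2 fell. With GC offsets E2F1 was at -3.98 with both drugs and had a called interaction of -0.54 ± 0.14 (adjusted p = 0.0150), which did not pass without them (0.24 ± 0.16, adjusted p = 0.274). MYCN was at -0.041 ± 0.10 (adjusted p = 0.756), -0.34 ± 0.10 (adjusted p = 0.0104) and -0.42 ± 0.10 (adjusted p = 0.00140) with BEZ-235, SAHA and both drugs. With GC offsets MYCN was at -0.78 ± 0.087 (adjusted p = 4.63e-07) with both drugs, and its interaction was -0.41 ± 0.12 (adjusted p = 0.0285), against -0.039 ± 0.14 (adjusted p = 0.856) without them. Whether any of them acted on the members was not tested.

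In CPM per kb of transcript, the members spanned a wide range in DMSO. The length is that of the transcript marked principal in GENCODE, and other lengths would give other levels. NME1 (224 ± 26.8), UCK2 (217 ± 7.52) and IMPDH2 (112 ± 12.1) were the most abundant, of which NME1 and UCK2 did not differ beyond their spread. TK2 (3.79 ± 0.262), DHODH (6.01 ± 0.542) and SHMT1 (6.66 ± 0.570) were the least abundant (SD, n = 3), the last 2 of these within their spread of each other. MTHFD1L (7.01 ± 0.139) lay within the spread of SHMT1. TYMS stood at 9.22 ± 0.0281 CPM per kb with BEZ-235, 47.2 ± 8.39 with SAHA, 6.29 ± 0.149 with both drugs and 68.4 ± 4.06 with DMSO.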

How the data were processed

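Polyadenylated RNA of 12 cultures of NB-1 cells was measured, 3 per group, grouped by the sample titles. The authors deposited expected counts, estimated reads per gene with no scaling for depth or length, in 1 table of 58051 Ensembl genes. Reads were aligned with STAR and counted with RSEM on hg38, per the submitters' processing notes. The sources used here do not give their versions or annotation. Kits marked strand, per the labels' protocols. GENCODE release 29 supplied symbols, positions, transcript lengths and GC content. Levels per kb used the length of the principal transcript, and GC content and the offsets used the longest transcript. After rounding, counts were scaled by TMM and fitted in edgeR 4.0.16 (R 4.3.3) with filterByExpr, 4 group means and the robust quasi-likelihood test, and p-values were adjusted over 17774 genes. The fit was tested on simulated data. The 35 members and all gene lists were chosen with earlier results of these data known. Values in every library were given for the 5 lowest and 3 highest called changes of each comparison against DMSO, the 3 highest and 3 lowest called interactions, and paired enzymes. Other pathway genes were named by the 2 smallest p-values per direction, of which 1 gene is not reported here.

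The alternatives tried were DESeq2 1.42.0, scaling by relative log expression, low counts kept in, only genes averaging 1 CPM or more, unrounded values, offsets from natural splines with 5 degrees of freedom on GC content and log2 length, fits of the groups compared only, a replicate block, and each library left out. Totals of 17662944 to 79543539 counts and a biological coefficient of variation of 10.6% set the precision. Spans shared between genes were found as 75-base stretches of annotated transcripts. Promoter sequences are those of RefSeq, GRCh38.p14.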

Additional observations from a re-analysis of the deposited data

Results flagged for a closer look

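The effect of SAHA differed between cells with and without BEZ-235, by edgeR's interaction test, for 11 of the 35 members, 5 positive and 6 negative, where 18.9% and 19.6% of all genes were called. Neither direction was called more often among the members than among all genes. The interactions were -0.8563 log2 units for DCK, -0.6524 for MTHFD2, -0.6438 for ADSS, -0.4015 for RRM1, -0.3857 for CTPS2, -0.3604 for PPAT, 0.4267 for PFAS, 0.4472 for SHMT2, 0.5609 for DTYMK, 0.8435 for IMPDH1 and 1.5127 for TK1. TK1 was at 1.15 ± 0.16 (adjusted p = 1.08e-05) with both drugs against BEZ-235 alone, while SAHA against DMSO gave -0.36 ± 0.11 (adjusted p = 0.0120). Transcripts of the 5 members with a positive call had 57.0 to 62.8% GC, and those of the 6 with a negative call 33.8 to 45.1%. With GC and length offsets TK1 and ADSS were the 2 of these 11 still called. The call of PPAT was lost without any 1 of 9 libraries, that of RRM1 without any 1 of 8, and that of DTYMK without DMSO replicate 2 (0.45, adjusted p = 0.0501) or BEZ-235 replicate 3 (0.44, adjusted p = 0.0518).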

How the results depend on the processing

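Counts of members called kept within 1.5 times under every alternative run, except these. Members higher with both drugs than with SAHA numbered 2 with low counts kept in and 2 without combination replicate 3, against 4. Interactions called with GC and length offsets were 3 positive and 1 negative among members and 3277 over all genes, and with the block added 2, 1 and 2779, against 5, 6 and 6834. The offsets turned IMPDH2 with both drugs against DMSO to -0.2284 (-0.2275 with the block added). Against BEZ-235 alone they turned PPAT to 0.019 (0.0191), IMPDH1 to -0.2492 (-0.249) and SHMT2 to -0.2288 (-0.2271). Against SAHA alone they turned PPAT to 0.0355 (0.0376), IMPDH1 to -0.3374 (-0.3373), SAMHD1 to 0.1762 (0.1764) and CMPK1 to 0.0737 (0.0882). In the interaction PPAT became 0.3311 (0.3324) and PFAS -0.0061 (-0.0035). The cause was not tested. With 1 library left out, members called ran from 3 to 5 higher and 19 to 22 lower with BEZ-235, 1 and 21 to 28 with SAHA, 2 and 26 to 27 with both drugs, 3 to 4 and 23 to 25 against BEZ-235, 2 to 4 and 22 to 24 against SAHA, and 4 to 6 positive and 4 to 8 negative interactions. Over 210 results, DESeq2 gave 2 further calls, relative log expression scaling lost 1 and unrounded values changed 0. Same-numbered replicates did not deviate together (r of -0.164 to 0.128, 1 of 12 libraries closest to its own number), and the replicate block lost 4 of these calls, MTHFD2 with BEZ-235, MTHFD1 with SAHA and the interactions of PPAT and RRM1 (adjusted p = 0.0512, 0.0502, 0.0694 and 0.0544). Over the 12 fits with 1 library left out, 63 calls were lost and 16 gained. Depth was not varied.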
